A study of Homo sapiens with 2 samples.

Results

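The Rab GTPases and the genes of endosomal sorting were taken as the protein-coding genes whose GENCODE 29 symbol is RAB followed by a digit and optional letters, or starts with VPS or SNX and a digit, CHMP or TBC1D. Of 186 such genes in the annotation, 83 were listed in at least 1 library, out of 16145 gene IDs listed in all. The cells carry the label HAL-01, a human leukaemia line given in the labels as one of B cell precursors. RNA-seq gave 2 libraries, 1 from a culture labelled Control and 1 from a culture labelled AG, which had received 1,5-AG (1,5-anhydroglucitol, a glucose analogue) at 0.8 mM for 24 h. The labels do not say what the Control culture received. No genetic change was labelled in either culture.

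Rab GTPases are molecular switches that mark membranes. In the GTP-bound form each recruits effectors that move, tether or fuse vesicles at its own compartment, and GTPase-activating proteins of the TBC1D family turn it off. VPS genes encode the machinery that sorts cargo between endosome and lysosome: ESCRT complexes bud receptors into the endosome for degradation, retromer and sorting nexins (SNX) return cargo to the Golgi or the cell surface, and the HOPS and CORVET tethers bring endosomes together for fusion. CHMP proteins form the ESCRT-III filaments that cut the membrane neck, and the VPS4 ATPases take those filaments apart. In myeloid and lymphoid cells this system carries phagosomes, granules and surface receptors.

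Each gene has a single FPKM (fragments per kilobase of gene, scaled to the total of its library) in each library. Differences between cultures therefore cannot be set against replicates, and p-values are left out. A member was compared when both libraries listed it and the average of both values reached 1 FPKM. Of the 83 listed members, 53 were compared, 18 were listed in both below that mean, 7 were listed in Control only and 5 in AG only. The remaining 103 were not analysed here, among them RAB5A, RAB5C, RAB4A, RAB11B, RAB8A and RAB27A, so the groups below are described by the members that have values. A gene listed in 1 library has no value in the other and was not set to 0. Such listing was common in the whole series. Of 16145 gene IDs, 13342 were listed in Control, 13351 in AG and 10548 in both. Of the 83 members these numbers were 78, 76 and 71. The change of a gene is given on the log2 scale as log2((AG FPKM + 1)/(Control FPKM + 1)), which understates the change of low genes. The plain ratio of AG to Control FPKM is given with an exact 95% counting interval from the whole fragments inferred behind both values, which covers counting error only.

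In the whole series, the steps between low values implied 16240451 fragments for Control and 14857372 for AG, and 5528 genes were compared, with a median log2 ratio of -0.03. The lineage markers did not follow the label. Of 10 B cell precursor markers, 7 were listed in Control and 3 in AG, and their FPKM summed to 2.57 and 2.61. Of 10 monocyte and granulocyte markers, 6 were listed in both, 3 with log2 ratios above 0 and 3 below. They summed to 939 FPKM in Control and 481 in AG, a fall that came from CTSG, at 743 and 194. MPO (4.75 and 1.70) and ELANE (47.6 and 41.8) were also lower in AG. S100A9 (66.3 and 131), LYZ (75.6 and 104) and ITGAM (1.55 and 8.30) were higher. The part of these marker differences in the values below was not tested. In bulk RNA, fewer cells that express a gene cannot be told apart from less RNA per cell.

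Most members differed little between the libraries. On the log2 scale, 1 of the 53 compared members exceeded its Control value by 1.5-fold or more, and 0 were below it by as much. Among all compared genes 3.6% were higher and 3.33% lower by this rule. The single member past it was TBC1D9B. RAB6B lay just inside, at a log2 ratio of -0.56. By the plain ratio, RAB6B (0.531) and SNX16 (0.601) were lower in AG by more than 1.5-fold. The share of all compared genes past 1.5-fold by the plain ratio was not taken, so these are given as single values. The log2 ratio was above 0 for 19 members and below 0 for 34, against 43.2% and 56.8% of all compared genes. Its median was -0.07 over the members, and -0.03 over the 30 whose exons overlap no exon on the other strand. The median size of the log2 ratio, ignoring its sign, was 0.12 for members and 0.13 for all compared genes. The plain ratio had a counting interval wholly above 1 for 6 of the 53 members and wholly below 1 for 16. Over all genes with an interval these shares were 16.7% and 22.9%. For 7 of the 53 (CHMP3, VPS16, RAB40C, RAB3IP, TBC1D1, TBC1D9B and VPS72) the span overlaps another protein-coding gene on the same strand, so their reads may be divided uncertainly.

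**Figure D1:**
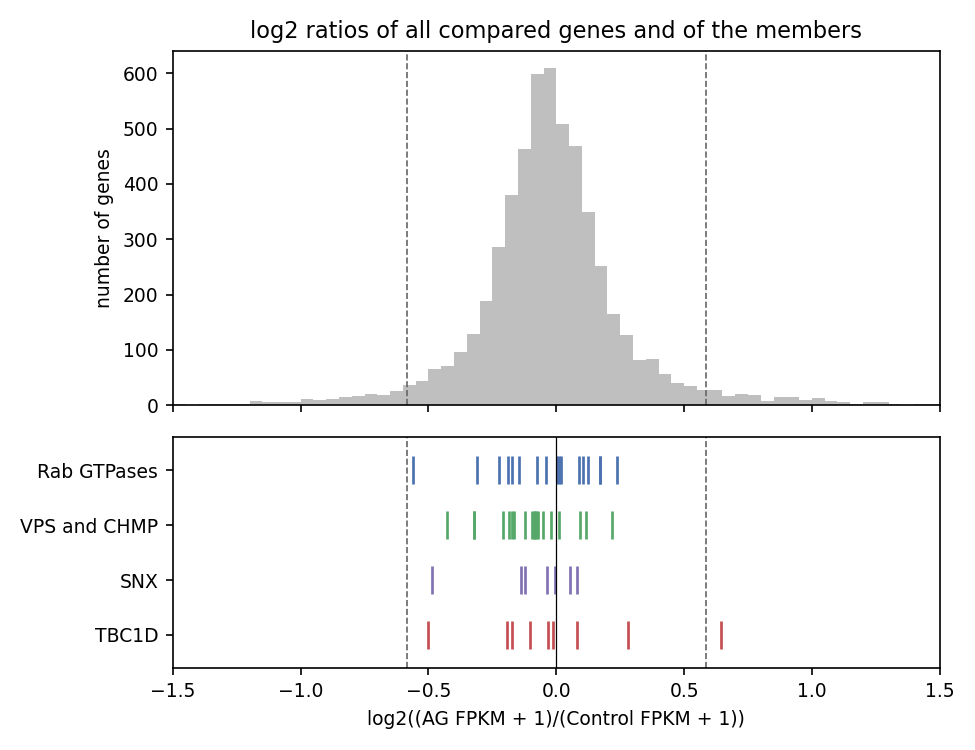
Upper panel: number of genes (vertical axis) by log2((AG FPKM + 1)/(Control FPKM + 1)) in steps of 0.05, for the compared genes within 1.5 on the log2 scale (30 lie beyond it). Lower panel: each tick is 1 compared member on the same horizontal axis, by family. Dashed lines mark 1.5-fold. A single TBC1D tick, TBC1D9B at 0.64, lies past a dashed line, and the RAB tick nearest to one is RAB6B at -0.56.

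Promoter letters were read for the members from the RefSeq table of GRCh38.p14, in the 250 bases before the most upstream start in that table, where 64 of the 83 listed members had an entry. The RefSeq start used can lie inside the gene as GENCODE 29 has it. The E-box CACGTG, which reads the same on both strands, was searched because it is the core of the element through which TFEB family factors act on lysosomal genes. It was present in 6 of the 40 compared members with an entry, that is 15%, against 9.2% of 3683 compared genes with an entry and 6.46% of all 27305 windows. Of those 6 members 5 had a log2 ratio below 0 and 1 above, against 21 and 13 of the 34 without the motif. Of all compared genes 56.8% were below 0, and a link between motif and ratio was not tested. A match is a description of letters, not of binding. By GENCODE, the motif lies before the gene start in 2 of the 6 members, RAB21 and VPS16, and after it in 4, in 3 of which (VPS11, VPS37B and TBC1D15) an exon of the gene covers it. Exons of another gene also reach into 2 of these windows, those of PCED1A at VPS16 and of AP003392.6 at VPS11. The stretches are shown because both compared genes of the HOPS and CORVET core, VPS11 and VPS16, hold the motif. Capitals mark CACGTG, and each is read 5′ to 3′ on the gene's strand.
VPS11, first match, chr11:119067752-119067777, plus strand: agctgccgacCACGTGattcgctggc
VPS11, second match, chr11:119067774-119067799, plus strand: tggctcagctCACGTGacaaagctcc
VPS16, chr20:2840669-2840694, plus strand: gcggcctcgcCACGTGacccggacgg
VPS37B, chr12:122896148-122896173, minus strand: gggctggcgtCACGTGtcccccccgc
TBC1D15, chr12:71839728-71839753, plus strand: gtccgagagaCACGTGaggttctgct
TBC1D8, chr2:101151428-101151453, minus strand: ggggcggggcCACGTGagggccgcgc
RAB21, chr12:71754833-71754858, plus strand: caccggcgctCACGTGacccgaggtg

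In VPS11, 50 and 28 bases lie between the matches and the RefSeq start used, which is 119067818. These matches start 70 and 92 bases after the GENCODE start. In VPS16 the match ends at 2840684, before the GENCODE start at 2840703 and the RefSeq start at 2840745. In RAB21 it ends at 71754848, before the RefSeq start at 71754863 and the GENCODE start at 71754874. The TBC1D8 match lies 101423 bases after the GENCODE start. RAB21, at a ratio of 1.09, is the one of these genes above 1, and VPS11 has the lowest ratio of them. TBC1D9B, the member past 1.5-fold, has no E-box in this window. Its window, chr5:179907898-179908147 on the minus strand, is shown with the GC box, the SP family motif GGGCGG or its complement CCGCCC, in capitals. The window holds 5 matches, some of them overlapping. A GC box was present in 77.5% of the compared members and in 68.2% of compared genes with an entry.
TBC1D9B: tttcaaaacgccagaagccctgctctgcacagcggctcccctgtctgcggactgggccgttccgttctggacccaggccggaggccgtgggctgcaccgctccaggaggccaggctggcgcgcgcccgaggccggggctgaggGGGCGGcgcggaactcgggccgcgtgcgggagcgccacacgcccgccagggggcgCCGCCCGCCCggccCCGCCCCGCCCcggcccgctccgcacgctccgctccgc

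The 17 Rab GTPases that could be compared spanned a wide range of levels, and their order was almost the same in both libraries. RAB7A, the Rab of late endosomes that drives their maturation and fusion with lysosomes, was the highest, at 46.7 FPKM in Control and 47.4 in AG. RAB14, which works between Golgi and recycling endosomes, followed at 41.9 and 42.0. RAB1B and RAB2A, both of traffic between ER and Golgi, had 33.3 and 30.2 FPKM in Control, with counting intervals that overlapped. Counting intervals of neighbours in the Control order also overlapped for RAB35 and RAB11A, for RAB40C and RAB33A, along the run RAB21, RAB7B, RAB22A, RAB12 and RAB2B, and along RAB6B, RAB3A and RAB33B. In AG, RAB2A ranked above RAB1B and RAB11A above RAB35, RAB7B moved from rank 11 to rank 13, behind RAB22A and RAB12, and RAB6B from rank 15 to rank 17. In Control the highest of the 17 exceeded the lowest, RAB33B, by 35.4-fold. No Rab GTPase passed 1.5-fold in either direction on the log2 scale, with 9 of the 17 above 0 and 8 below it and a median of 0.00.

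**Figure D2:**
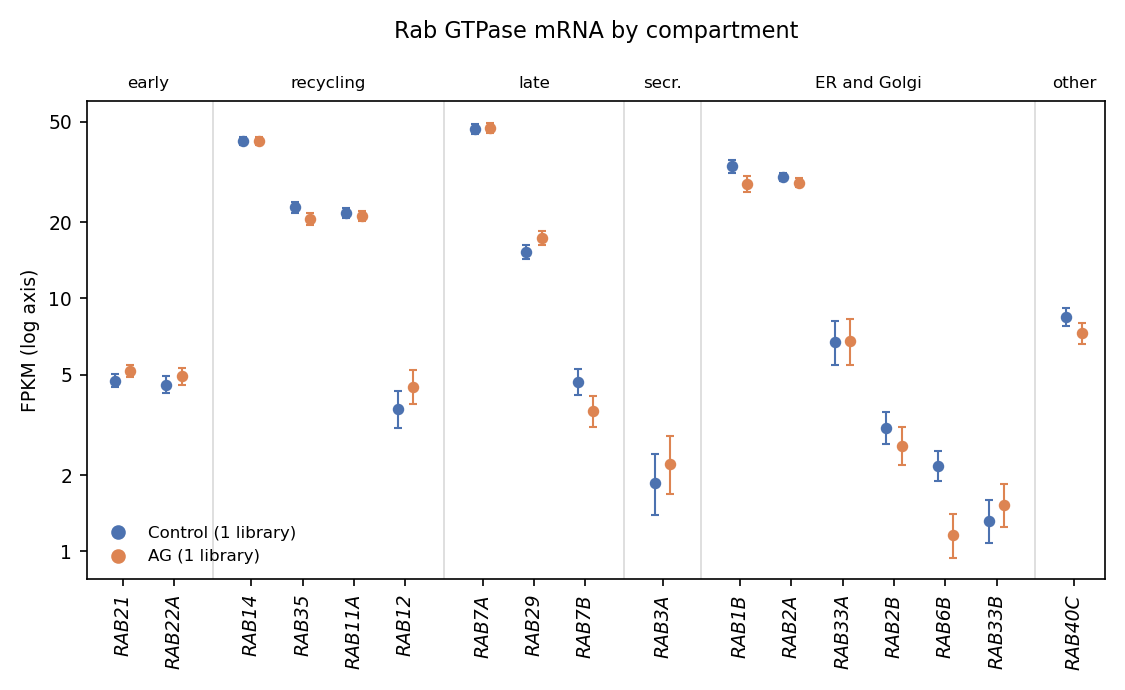
FPKM (vertical log axis) of the 17 compared Rab GTPases in Control (blue) and AG (orange), grouped by compartment, with 1 library per group. Points are the deposited values and bars are 95% counting intervals. The paired points lie close together for RAB7A (46.7 and 47.4) and RAB14 (41.9 and 42.0), and are farthest apart for RAB6B (2.18 and 1.16).

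Of the Rabs of early endosomes, where incoming cargo is first sorted, 2 of 8 were listed and both were slightly higher in AG. RAB21, which carries integrins through early endosomes, had 4.74 FPKM in Control and 5.17 in AG (ratio 1.09, interval 1.01 to 1.18). RAB22A, which acts in sorting from early endosomes into recycling tubules, had 4.57 and 4.92 (ratio 1.08, interval 0.969 to 1.20). Within each library these 2 levels lay close together. The group's median log2 ratio was 0.10.

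Most recycling Rabs return receptors to the cell surface, though RAB12, grouped here, sends its cargo to lysosomes. Of 10 genes in the group, 4 were compared. RAB14 had a ratio of 1.00 (0.951 to 1.06). RAB11A, the marker of recycling endosomes, had 21.8 FPKM in Control and 21.2 in AG (ratio 0.972, interval 0.912 to 1.04). RAB35, of fast recycling from the plasma membrane, was the one member of this group whose interval excluded 1, with 23.0 and 20.7 FPKM and a ratio of 0.901 (0.835 to 0.972). RAB12, which carries transferrin receptor from recycling endosomes to lysosomes, had 3.65 and 4.48 (ratio 1.23, interval 0.976 to 1.54), resting on 147 and 165 fragments. The recycling group's median was -0.02, with 2 above 0 and 2 below.

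Late endosomal and lysosomal Rabs went in both directions. RAB7A had a ratio of 1.01 (0.95 to 1.08). Its relative RAB7B, which acts in transport from late endosomes to the Golgi, was lower in AG, at 4.68 FPKM in Control and 3.58 in AG (ratio 0.765, interval 0.634 to 0.922). RAB7A exceeded RAB7B by 9.99-fold in Control and by 13.2-fold in AG. RAB29, which acts at lysosomes and the trans-Golgi, had 15.3 and 17.3 FPKM (ratio 1.13, interval 1.04 to 1.24). The median of these 3 was 0.02. RAB38, of lysosome-related organelles such as melanosomes, and RAB42 were listed in both libraries at 0.215 FPKM or less, on at most 5 fragments, and RAB36 only in AG at 0.10.

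Secretory Rabs had few values. Of 12 genes, 4 were listed and 1 was compared: RAB3A, which controls docking of granules for regulated exocytosis, at 1.86 FPKM in Control and 2.22 in AG (ratio 1.19, interval 0.812 to 1.76) from 54 and 59 fragments. RAB27B, of granule and exosome release, and RAB3C were near 0 in both, at up to 0.0630 FPKM. RAB3D, a Rab of secretory granules, was listed in AG only, at 6.31 FPKM, and its span overlaps that of TMEM205 on the same strand.

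Side by side, the summed FPKM of the compared Rabs was 9.30 in Control and 10.1 in AG for the early group, 90.3 and 88.4 for recycling, 66.7 and 68.3 for late and 1.86 and 2.22 for secretory. The median log2 ratios of the compartments were 0.10, -0.02, 0.02 and 0.17 in that order. The secretory sum and median are those of RAB3A alone, whose ratio had an interval of 0.812 to 1.76. RAB3D, at 6.31 FPKM in AG, has no Control value and is in neither. The single-gene log2 ratios ran from 0.09 to 0.10 in the early group and from -0.14 to 0.24 in recycling. In the late group they ran from -0.31 to 0.17, so the early values lie inside the range of both others. The upper end of recycling was RAB12 alone. The next recycling gene, RAB14, was at 0.004, below the early values. Differences between compartments were not tested, since 1 library per group gives no spread to test them against.

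The Rabs of ER and Golgi held the lowest ratio of any Rab GTPase compared. RAB6B, a Golgi Rab best known from neurons, had 2.18 FPKM in Control and 1.16 in AG, on 214 and 104 fragments (ratio 0.531, interval 0.416 to 0.675). Its exons overlap those of SRPRB on the other strand, and the counting's strand setting is not given. RAB1B, at 33.3 and 28.4 FPKM, had a ratio of 0.852 (0.777 to 0.935), and RAB2A, at 30.2 and 28.6, one of 0.947 (0.896 to 1.00). RAB2B, RAB33A and RAB33B, which recruits the autophagy factor ATG16L1, had ratios from 0.85 to 1.16 with intervals that included 1. The group's 6 members had a median of -0.12. RAB40C, a Rab that recruits a ubiquitin ligase, had 8.45 and 7.29 FPKM (ratio 0.863, interval 0.761 to 0.977), and its span overlaps WFIKKN1. Its relative RAB40B, below the minimum for comparison, had 0.899 and 0.459 (ratio 0.510, interval 0.345 to 0.744). RAB3IP, taken in by its name, is an exchange factor for RAB8 rather than a GTPase, and had 1.04 and 1.07 FPKM.

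All 8 compared ESCRT subunits had log2 ratios below 0, by small amounts, and 56.8% of all compared genes lay below 0. Scaling by the median of ratios, or to a common FPKM total, also left all 8 below 0. Under these scalings the median log2 ratio of all compared genes was -2.48e-06 and -0.02. CHMP4B, the main filament-forming subunit, was the most abundant member of any family, at 60.5 FPKM in Control and 56.5 in AG (ratio 0.935, interval 0.868 to 1.01). CHMP2A, which caps the filament and recruits VPS4, had 32.9 and 30.9. CHMP5, a late-acting subunit, had the lowest ratio of the group, at 25.4 and 20.1 FPKM (ratio 0.793, interval 0.719 to 0.874). VPS4B, the ATPase, had 22.3 and 20.4 (ratio 0.915, interval 0.849 to 0.985). These 2 were the ESCRT members whose intervals excluded 1. CHMP7, which also acts in resealing the nuclear envelope, had 17.6 and 16.5 FPKM, and CHMP3 had 9.44 and 9.08. The ESCRT-I subunits VPS28, at 3.25 and 2.79, and VPS37B, at 2.72 and 2.27, were lower in level, with ratios of 0.857 (0.690 to 1.06) and 0.834 (0.687 to 1.01). The ESCRT-III and VPS4 group, with 6 compared members, had a median log2 ratio of -0.09.

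Retromer subunits were at similar levels to one another. VPS29, a scaffold subunit, had 25.3 FPKM in Control and 22.3 in AG (ratio 0.882, interval 0.813 to 0.956). VPS26A had 25.2 and 25.4, VPS35, the backbone of the complex, had 19.9 and 18.8 (ratio 0.945, interval 0.897 to 0.995), and VPS26B had 15.7 and 14.9. The highest of these 4 exceeded the lowest by 1.61-fold in Control and by 1.70-fold in AG. VPS26C, a subunit of the related retriever complex, was lower in level and higher in AG, at 6.12 and 7.29 (ratio 1.19, interval 1.09 to 1.3). It was the one VPS gene of retromer or retriever with an interval above 1. VPS26C exons overlap a clone-named gene on the other strand.

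**Figure D3:**
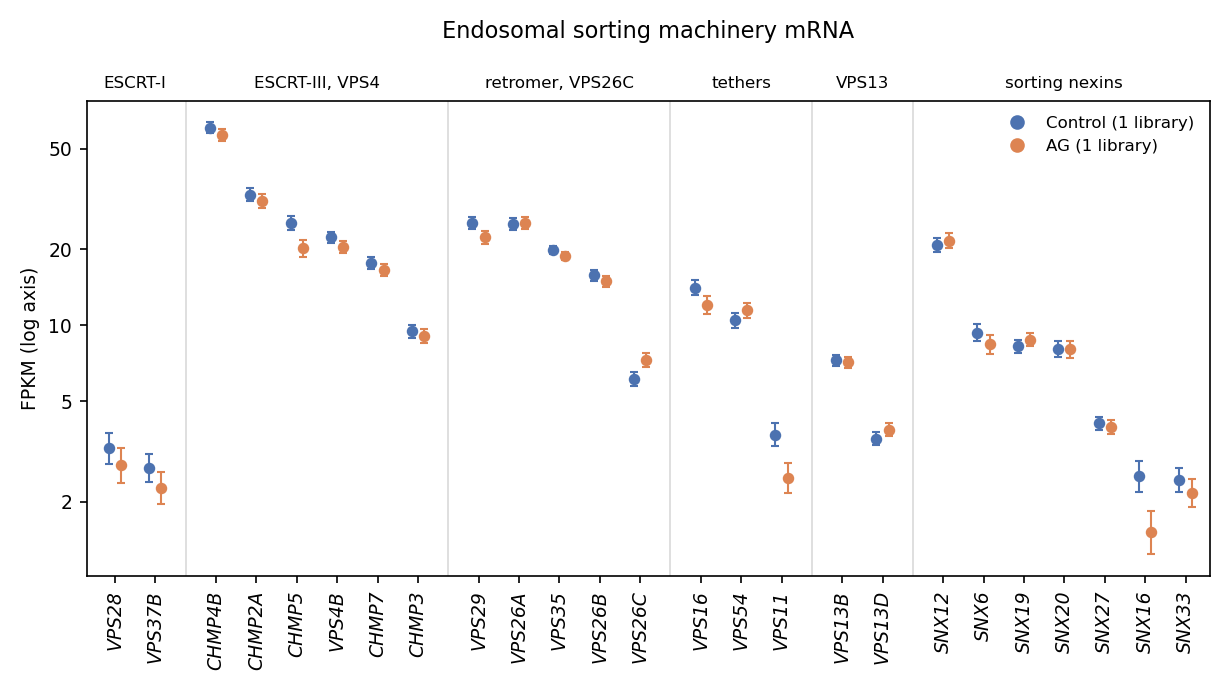
FPKM (vertical log axis) of the compared VPS, CHMP and SNX genes in Control (blue) and AG (orange), grouped by complex, with 1 library per group and 95% counting intervals as bars. VPS72, which is not endosomal, is left out. Every ESCRT pair has the AG point at or below the Control point, and the widest gaps are at VPS11 (3.69 and 2.48) and SNX16 (2.53 and 1.52).

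HOPS and CORVET share a core to which VPS11 and VPS16 belong, and both genes were lower in AG. VPS11 had 3.69 FPKM in Control and 2.48 in AG, on 346 and 213 fragments (ratio 0.673, interval 0.565 to 0.800). VPS16 had 14.1 and 12.1 (ratio 0.856, interval 0.768 to 0.954). The VPS11 exons overlap a clone-named gene on the other strand. VPS16 shares 2549 bases of its span with PTPRA on the same strand, which had 14.5 and 13.6 FPKM. The CORVET subunit VPS8 was listed in AG only, at 3.76 FPKM, and the other 5 genes of this group were not analysed here. VPS54 of the GARP tether, which receives vesicles at the Golgi, had 10.5 and 11.4 (ratio 1.09, interval 0.993 to 1.20), and VPS51, shared by GARP and EARP, was listed in AG only at 13.5 FPKM, with a span that overlaps TM7SF2 on the same strand. The lipid transfer proteins VPS13B and VPS13D had ratios of 0.983 (0.920 to 1.05) and 1.09 (1.00 to 1.18). VPS72, a subunit of a chromatin remodelling complex that only shares the VPS name, had 38.5 and 30.6 FPKM (ratio 0.794, interval 0.75 to 0.841).

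Sorting nexins bind phosphoinositides on endosomes, and 7 of 30 were compared. SNX12 was the highest, at 20.8 FPKM in Control and 21.6 in AG (ratio 1.04, interval 0.943 to 1.14). SNX27, an adaptor that links cargo to retromer, had 4.08 and 3.96, and SNX20, which sorts the leukocyte adhesion molecule PSGL-1, had 8.04 and 8.02. SNX6, with a membrane-bending BAR domain, had 9.35 and 8.41 (ratio 0.899, interval 0.798 to 1.01). SNX16, of early and late endosomes, was the exception: it had 2.53 FPKM in Control and 1.52 in AG, on 189 and 104 fragments (ratio 0.601, interval 0.469 to 0.768). SNX16 exons overlap non-coding genes on the other strand. The other 2 compared nexins, SNX19 and SNX33, had intervals that included 1. The median log2 ratio over the 7 was -0.04.

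The TBC1D family held the extremes among members with at least 5 FPKM in both libraries. TBC1D9B, for which activity on RAB11A has been described, had 5.10 FPKM in Control and 8.53 in AG, on 953 and 1459 fragments (ratio 1.67, interval 1.54 to 1.82), a log2 ratio of 0.64. It shares 108 bases of its span with MRNIP on the same strand, which had 0.691 and 0.572 FPKM. TBC1D2B went the other way, at 11.6 and 7.94 FPKM, on 1847 and 1152 fragments (ratio 0.682, interval 0.633 to 0.734), a log2 ratio of -0.50. Its exons overlap the pseudogene ADAMTS7P3 on the other strand. TBC1D32, a gene of cilia, had 0.935 and 1.35 (ratio 1.45, interval 1.11 to 1.88) from 105 and 139 fragments.

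The other 6 compared TBC1D genes lay closer to 1. TBC1D1, which restrains glucose transporter traffic in muscle, was the most abundant, at 21.6 FPKM in Control and 21.4 in AG (ratio 0.992, interval 0.942 to 1.04). Its paralogue TBC1D4 had 0.276 and 0.335 FPKM. TBC1D15, which acts on RAB7, had 7.01 and 6.0 (ratio 0.856, interval 0.776 to 0.944), and TBC1D8 had 14.3 and 13.3 (ratio 0.926, interval 0.859 to 0.999). TBC1D23, a vesicle-capture adaptor at the trans-Golgi, had 9.77 FPKM in AG and a ratio of 0.976. TBC1D22B exceeded TBC1D22A by 1.96-fold in Control and by 2.42-fold in AG, with ratios of 1.06 (0.938 to 1.21) and 0.861 (0.741 to 1.00). TBC1D9, below the minimum, had 0.453 and 0.713 (ratio 1.58, interval 1.05 to 2.38). TBC1D5, which acts on RAB7 and binds retromer, was listed in AG only at 14.7 FPKM, and its span overlaps SATB1 on the same strand. The near-identical TBC1D3 copies were all at 0.744 FPKM or less, and reads cannot be assigned among them. Of the 9 compared TBC1D genes 6 were below 0 as deposited, and 4 with the median of ratios as the scale.

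**Figure D4:**
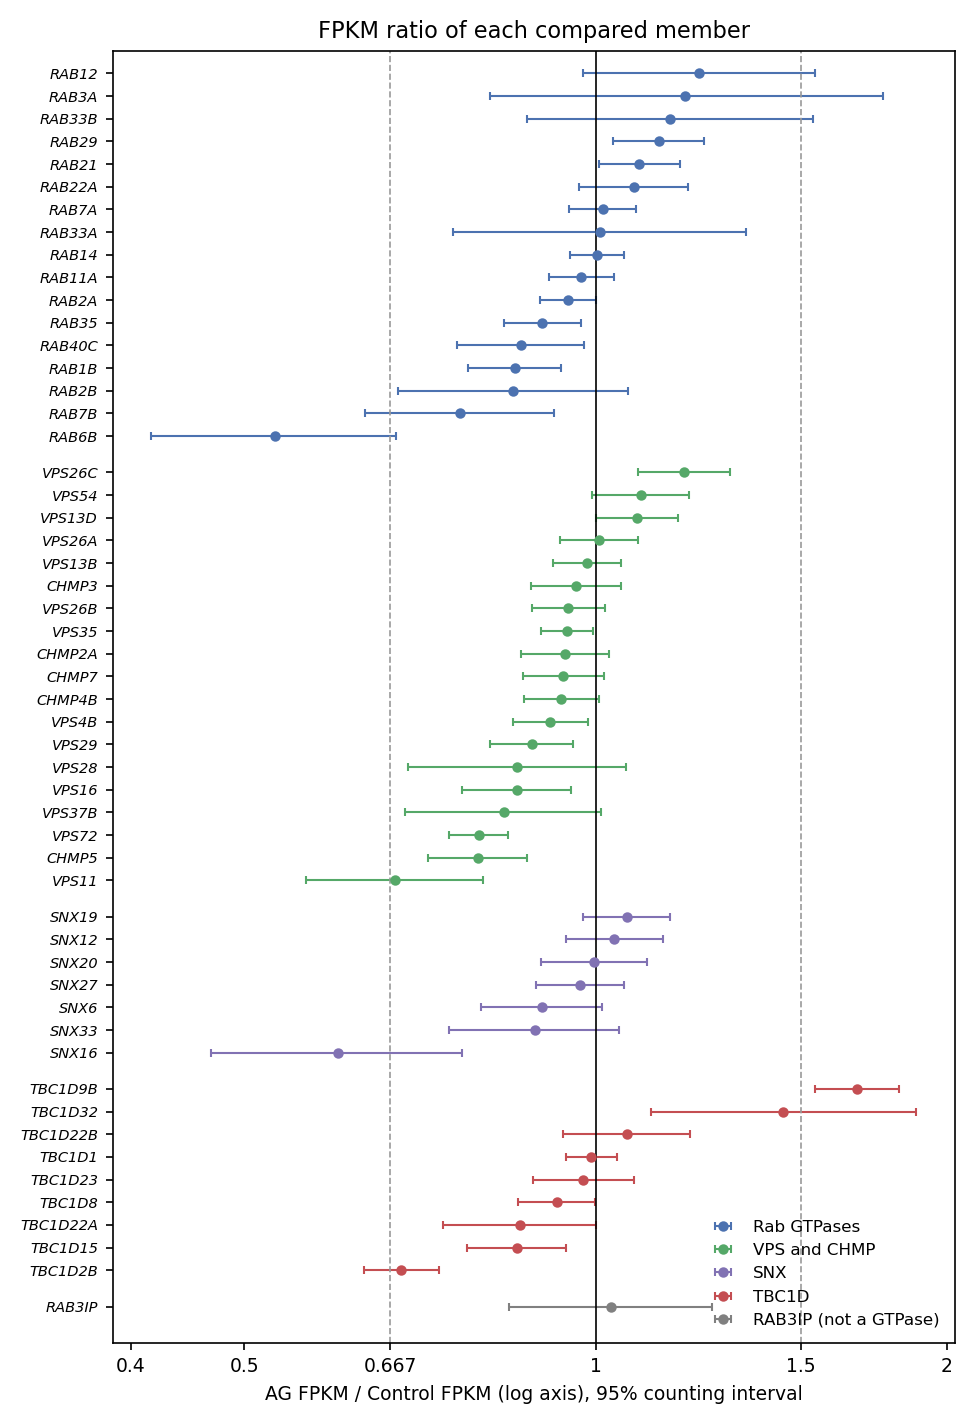
AG FPKM divided by Control FPKM (horizontal log axis) for each of the 53 compared members, coloured by family, with 95% counting intervals as bars. The solid line marks 1 and dashed lines mark a 1.5-fold difference of the plain ratio. TBC1D9B (1.67) has its whole interval above the upper dashed line, and RAB6B (0.531), SNX16 (0.601), VPS11 (0.673) and TBC1D2B (0.682) have the lowest ratios.

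In GRCh38 coordinates of GENCODE 29, TBC1D9B (ENSG00000197226) spans 179862066 to 179907859 on chromosome 5, minus strand, and TBC1D2B (ENSG00000167202) spans 77984036 to 78077724 on chromosome 15, minus strand. RAB6B (ENSG00000154917) lies on chromosome 3 at 133824239 to 133895836, minus strand, VPS11 (ENSG00000160695) on chromosome 11 at 119067692 to 119081978, plus strand, and RAB7A (ENSG00000075785) on chromosome 3 at 128726122 to 128814796, plus strand. Each FPKM is for the whole gene.

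Other genes of the Rab cycle and of endosomes that carry different names were described from lists by role. Of 142 such genes in the annotation 51 were compared, and none passed 1.5-fold in either direction on the log2 scale, with 28 above 0, 23 below and a median of 0.04. Of 35 Rab effectors 11 were listed. Of the 7 compared none was below 0 (median 0.14), RUBCN being level at 1.11 FPKM in both, and 5 had intervals above 1. SYTL3, SYTL4 and RAB11FIP4, listed in both below the minimum for comparison, had log2 ratios below 0. Their plain ratios were 0.696, 0.820 and 0.998, with intervals that included 1. Of all compared genes 43.2% were above 0, and 16.7% of those with an interval had it above 1. EEA1, the RAB5 effector that tethers early endosomes, differed most of the 7 compared effectors. It had 7.96 FPKM in Control and 10.5 in AG (ratio 1.31, interval 1.22 to 1.41). BICD2, a dynein adaptor of RAB6 vesicles and the most abundant effector, had 13.4 and 14.5. Of 10 endosomal SNAREs and EHD proteins, 7 were above 0 (median 0.14) and 5 had intervals above 1, to be read against the same shares. VAMP7, a SNARE of late endosomes and lysosomes, had 32.6 and 39.6 FPKM (ratio 1.21, interval 1.13 to 1.3), and VAMP4, of the trans-Golgi, had 3.37 and 4.39 (ratio 1.3, interval 1.10 to 1.53). STX7, a late endosomal syntaxin, had 2.03 and 1.71 (ratio 0.844, interval 0.741 to 0.961).

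Exchange factors, which switch Rabs on, were divided, with 6 of 12 above 0 and 6 below. RIN3, an activator of RAB5 family Rabs, had 0.823 FPKM in Control and 1.24 in AG (ratio 1.51, interval 1.18 to 1.93), and DENND2D had 3.98 and 2.71 (ratio 0.681, interval 0.582 to 0.794). DENND4B, the most abundant, had 22.9 and 24.2. Of 7 GTPase-activating proteins without a TBC1D name 5 were above 0, with RAB3GAP2 the most abundant at 16.4 and 17.8. RABGGTB, the catalytic subunit of the enzyme that attaches lipid anchors to Rabs, had 12.0 and 14 (ratio 1.17, interval 1.07 to 1.26). The 4 compared ESCRT genes without VPS or CHMP names were all below 0 (median -0.07), with all intervals including 1, and VTA1, which stimulates VPS4, had 14.3 and 13.9. Of 3 phosphoinositide genes, PIKFYVE, the kinase of late endosomal lipids, had 19.4 and 19.3, and MTM1, an endosomal phosphatase, had 18.7 and 15.5 (ratio 0.828, interval 0.758 to 0.905). In the WASH and COMMD list, 2 of 6 were above 0, with WASHC5 at 21.4 and 22.1 and COMMD4 at 9.29 and 7.30.

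**Figure D5:**
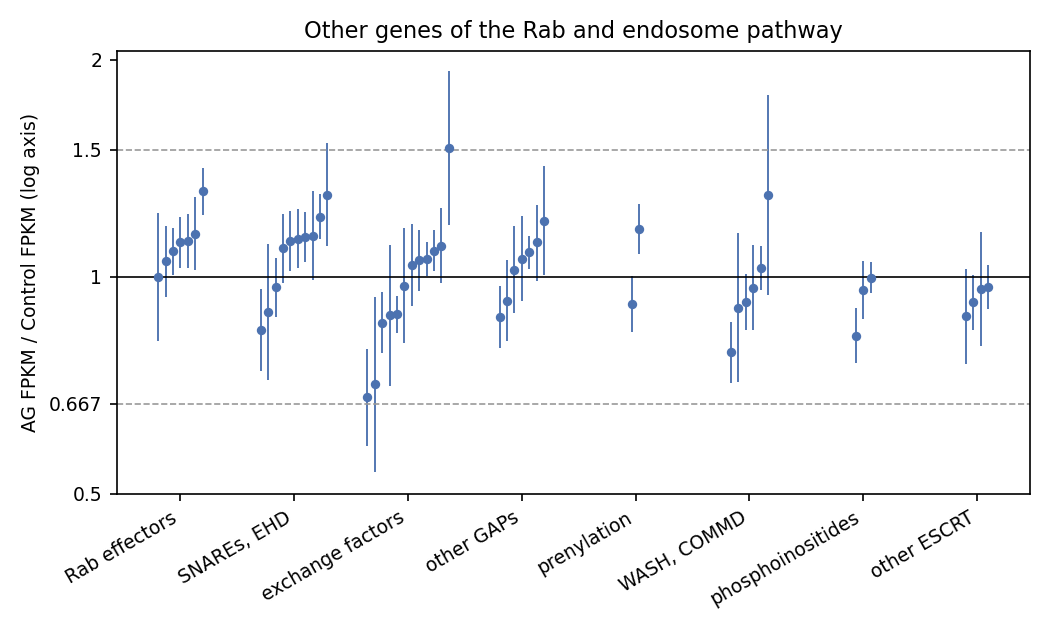
AG FPKM divided by Control FPKM (vertical log axis) for the 51 compared pathway genes that carry other names, by list, with 95% counting intervals as bars. The solid line marks 1 and dashed lines mark a 1.5-fold plain ratio. All points of the Rab effector list lie at or above 1, up to EEA1 at 1.31, and the 4 points of the other ESCRT genes lie below 1.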

How the data were processed

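Per the labels' protocols, Trizol RNA went into Illumina TruSeq Stranded libraries of mRNA. The authors deposited FPKM per Ensembl gene. Per the submitters' processing notes, the tools include HISAT2, HTSeq, Cufflinks and Trimmomatic, with hg38 as genome build. No source used here gives their versions, the annotation release, strand setting or filters. Where strand is unknown, genes with overlapping exons on opposite strands cannot be told apart, which touches 23 of the 53 compared members. Besides those named above with such an overlap, they include RAB21, RAB35, RAB1B, RAB3A, VPS29 and TBC1D8. FPKM shifts with the library total.

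IDs were matched to GENCODE 29 (97.1% of 16145). Fragment totals were found from single-transcript genes, of which 88.4% in Control and 88.1% in AG gave whole fragments within 0.01. Each gene's fragments were taken as the whole pair that its exon length, its longest transcript or, failing these, the nearest length or pair with the right ratio gave, recovered for 97.8% of compared genes and all 53 compared members. The exon length itself gave the pair for 39.0% of compared genes and 15 of the 53 members. A nearest length gave it for 35 members, in 5 of which it was off by more than 5%, and the ratio alone for 3, so fragment numbers and intervals of those 38 are estimates. The interval of a ratio is exact (Clopper-Pearson, 95%), and that of a level is exact Poisson. No count model was fitted. On simulated data for AG with Control, over 5405 genes, 99.3% of recovered pairs equalled the simulated pair and intervals covered the true ratio for 95.7%. The simulation held counting error only, with lengths within 5% of the exon length.

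Members and lists were chosen with earlier results of these data known. Every member could be named. Full values went to members past 1.5-fold, and in each role to the most abundant and the extremes. Alternatives were pseudocounts of 0.1 and 5 FPKM, no filter, a mean of at least 5 FPKM, a common FPKM total, the median of ratios, leaving out members of uncertain assignment, and a 2-fold threshold. Promoter letters are from RefSeq. Markers of T and NK cells (NKG7 alone listed in both), erythroid cells (HBB alone, in Control) and stroma (2 of 6 listed) summed to 17.2, 0.0472 and 0.176 FPKM in Control and, for T and NK cells and stroma, 10.3 and 0.448 in AG. Scripts ran on scipy 1.17.1, pandas 2.3.3, matplotlib 3.10.9 and numpy 2.4.6 under Python 3.11.15.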

Additional observations from a re-analysis of the deposited data

How the results depend on the processing

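With 1 library per group, no replicate could be left out. No paired analysis was possible because each group has a single library. The count of members at least 1.5-fold higher in AG, 1 of 53 as reported, was 0 with a pseudocount of 5 FPKM, 0 at a 2-fold threshold and 0 without the 7 members of uncertain assignment, since TBC1D9B is among these. The count of members at least 1.5-fold lower, 0 as reported, was 2 with a pseudocount of 0.1 FPKM, namely RAB6B and SNX16. With the other pseudocounts, filters and scalings and without members of uncertain assignment, the median log2 ratio of the members and of each role group that kept a member stayed between the medians of the lower and upper counting limits, both set on the log2 scale with the pseudocount of 1 FPKM. Scaling by the median of ratios changed the sign of 4 of the 53 members and moved the number above 0 from 19 to 23. It also moved the median of all compared genes from -0.03 to -2.48e-06. Leaving out members that overlap an exon on the other strand, an alternative chosen after seeing the data, changed neither count and gave a median log2 ratio of -0.03 over 30 members. Members with few fragments, such as RAB3A with 54, could show only large differences.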

Other observations

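Some transcripts that are related to the members by name but do not code for protein were also listed. RAB30-AS1, a long non-coding RNA beside a Golgi Rab gene, had 1.34 FPKM in Control and 1.20 in AG, while RAB30 itself was not analysed here. TBC1D8-AS1 had 0.497 and 0.244 FPKM on 20 and 9 fragments, beside TBC1D8 at 14.3 and 13.3. The processed pseudogene RAB5CP1 had 0.318 and 0.232 FPKM on 3 and 2 fragments, and its parent gene was not analysed here. CHMP4BP1, a processed copy of the most abundant member, rested on 1 and 2 fragments, against 1573 and 1345 for CHMP4B.

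The 5 members listed in AG only were TBC1D5 at 14.7 FPKM, VPS51 at 13.5, RAB3D at 6.31, VPS8 at 3.76 and RAB36 at 0.10, of which TBC1D5, VPS51 and RAB3D overlap another protein-coding gene on the same strand. The 7 listed in Control only ran from 0.0200 FPKM for RAB6C to 0.737 for RAB5IF. These values stand in no comparison, since the other library gives none. In the whole series 10548 of 16145 gene IDs were listed in both libraries, against 71 of the 83 members.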
